A study of Mus musculus with 19 samples.

Results

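Regulatory T cells (Tregs) of the CD44low fraction were sorted from the lymph nodes draining the injury site of burned mice, and 6 such libraries of 19 in the series were compared with each other. Their labels fall in 2 sets. The labels of 3 libraries carry a single number (1, 2 and 5, the single-number set) and those of the other 3 carry a number and a second number (1_2, 4_2 and 5_2, the second-number set). The labels do not say what the second number stands for, whether cells of 1 mouse or a pool went into a library, or whether 1 and 1_2, or 5 and 5_2, share an animal. No difference in group, sort or time is given between the sets, so the comparison asks how much 2 sets of libraries of the same condition differ, and where each stands against the uninjured CD44low libraries. The p-values below measure only the spread between these libraries, part of which may be technical.

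All mice carried the Foxp3DTR allele, in which a diphtheria toxin receptor fused to GFP is made under the Foxp3 gene, so that Tregs are sorted as CD4+FoxP3-GFP+ cells, and were 8 to 16 weeks old by the study's methods. Injured mice had a burn of 20% of the body surface by a bath at 90 °C for 9 seconds, and uninjured mice had sham treatment. Cells were taken at day 7. The groups were 5 uninjured CD44low, 6 injured CD44low, 4 uninjured CD44high and 4 injured CD44high libraries, each from RNA of 50000 cells, amplified as SMART-Seq cDNA. CD44 marks antigen-experienced cells, and CD44low Tregs are the resting fraction. In bulk samples, fewer cells of a type and less RNA per cell cannot be told apart.

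Immediate-early genes such as Fos and Jun are transcribed within minutes of a stimulus without new protein synthesis, their mRNAs are short-lived, and many encode transcription factors or inhibitors that close the response. In lymphocytes antigen receptor signals induce them. Stress genes form separate programs. Heat shock genes encode cytosolic chaperones, the unfolded protein response supplies chaperones of the endoplasmic reticulum, and the integrated stress response slows translation through phosphorylated eIF2α. RNA-binding proteins act after transcription, in splicing, polyadenylation, decay and translation, and Rbm3 and Cirbp among them rise in cooled cells.

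Promoter stretches of 6 genes described below are shown first as examples, chosen after their values were seen. Fos, Junb and Ppp1r15a were among the genes lower in the single-number set and Hspa5, Hsp90b1 and Pdia6 among those higher. The sequences are RefSeq promoter bases of build GRCm38.p6, on the strand of the gene and ending 1 base before the annotated start. For the first 3, capitals mark the cAMP response half-site TGACG (Fos, Junb) or the full palindrome TGACGTCA (Ppp1r15a). The half-site stood in the 250 bases before the start, on either strand, in 19.8% of 27025 genes with a RefSeq promoter, and the palindrome, which holds the half-site on both strands, in 1.77%. Among the tested genes that have a RefSeq promoter, 9123 of 11464, the half-site stood in 31.7% and the palindrome in 3.15%, and among the 232 of 297 genes called lower in the single-number set in 30.2% and 4.74%. Since under 80% of these genes have a promoter by symbol, the comparison is void and nothing is drawn from it. Fos lies at chr12:85473750-85473889 (plus strand), Junb at chr8:84978749-84978868 (minus strand) and Ppp1r15a at chr7:45526269-45526328 (minus strand).
Fos: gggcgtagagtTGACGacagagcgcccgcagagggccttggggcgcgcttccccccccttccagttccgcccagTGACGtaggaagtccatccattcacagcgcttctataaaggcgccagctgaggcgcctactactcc
Junb: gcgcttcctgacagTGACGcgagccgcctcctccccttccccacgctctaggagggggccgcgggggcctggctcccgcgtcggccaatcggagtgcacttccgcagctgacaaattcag
Ppp1r15a: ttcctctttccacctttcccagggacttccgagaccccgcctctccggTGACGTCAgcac
For the chaperone genes, capitals mark the endoplasmic reticulum stress element, CCAAT and CCACG with 9 bases between them, searched on both strands. It stood before the start of 35 of the 27025 genes (0.13%), of 8 of the 19 unfolded protein response genes with a RefSeq promoter, and of 3 of the 6 of them that passed the test below, with 2 copies in Hsp90b1. Hspa5 lies at chr2:34772010-34772089 (plus strand), Hsp90b1 at chr10:86705445-86705664 (minus strand) and Pdia6 at chr12:17266479-17266588 (plus strand).
Hspa5: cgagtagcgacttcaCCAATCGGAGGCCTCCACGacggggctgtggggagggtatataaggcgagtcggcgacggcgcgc
Hsp90b1: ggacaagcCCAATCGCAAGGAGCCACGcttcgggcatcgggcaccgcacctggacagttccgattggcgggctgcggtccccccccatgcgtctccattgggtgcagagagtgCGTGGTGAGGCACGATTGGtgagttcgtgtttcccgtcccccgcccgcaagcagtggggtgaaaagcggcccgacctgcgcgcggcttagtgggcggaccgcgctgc
Pdia6: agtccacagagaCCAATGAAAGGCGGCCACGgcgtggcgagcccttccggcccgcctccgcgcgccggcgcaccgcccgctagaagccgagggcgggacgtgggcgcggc
These matches describe the sequence only, and no binding was measured.

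Totals lay between 5582234 and 9433610 counts per library over all 19, between 6723163 and 8011051 in the single-number set and between 5582234 and 6604211 in the second-number set. The median absolute log2 difference over genes was 0.30 to 0.41 in the 9 pairs of libraries from different sets. In 4 of the 6 pairs within a set it was lower, at 0.18 to 0.27, and it was 0.35 for 1_2 with 4_2 and 0.45 for 1_2 with 5_2. No pair of the 6 was a repeat of the same library within counting noise, as the chi-square per gene was at least 5.69 where counting alone gives about 1. Markers of the sort were measured in all 6 libraries. Foxp3, the factor that defines Tregs, had 76.0, 82.8 and 65.5 CPM, or counts scaled to the library total, in libraries 1, 2 and 5, 76.4, 181 and 139.8 CPM in libraries 1_2, 4_2 and 5_2, and 101 to 144 CPM in the uninjured libraries, and its difference between sets did not pass the threshold (log2 fold change -0.82, SE 0.24, adjusted p = 0.0575). This call depended on the settings. The difference passed by DESeq2 (adjusted p = 0.0201), in edgeR with no filter on low counts (0.0306), after thinning (0.0481), with the length trend taken out, which was chosen after seeing the data (0.0274), and without library 1_2 (0.00383), and under the other 10 alternatives the adjusted p was 0.0576 to 0.407. Cd44 had 102 to 149.8 CPM in the single-number set and 102 to 122 CPM in the second-number set, against 541 to 626 CPM in uninjured CD44high libraries. Il2ra, a chain of the interleukin 2 receptor, and Cd4 also did not pass the test between sets (adjusted p = 0.663 and 0.332).

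No marker of other cell types passed the edgeR test between sets, although those of macrophages and neutrophils were uneven. Of 10 tested MHC class II genes, 0 were called by edgeR, 1 had an unadjusted p under 0.05 and 1 passed by DESeq2. Of 13 tested B cell markers, 17 macrophage and dendritic cell markers, 3 neutrophil markers, 10 CD8 and NK cell markers and 4 stromal markers, 0 were called in either direction by edgeR, 2, 4, 2, 2 and 1 had an unadjusted p under 0.05 in that order, and 0 passed by DESeq2. Lyz2, a lysozyme of macrophages and neutrophils, had 44.8 to 119.99 CPM in the single-number set, 29.5 to 35.4 CPM in the second-number set and 17.95 to 33.3 CPM in uninjured CD44low libraries (adjusted p = 0.0607 between sets). S100a8 of neutrophils reached 16.3 CPM in 1 single-number library and was at 0 in another. The 12 neutrophil markers summed to 0.297 to 50.2 CPM in the single-number set, 0.517 to 4.497 CPM in the second-number set and 0 to 1.69 CPM in uninjured libraries. The 20 macrophage and dendritic cell markers summed to 753 to 831, 658 to 851 and 583 to 671 CPM, in that order, and the 13 B cell markers to 168 to 290.4, 149.6 to 165 and 108 to 216 CPM. Hbb-bs was at 0 in all of these libraries, and Col1a1 was at or below 0.570 CPM. Against uninjured CD44low, 1 of 13 B cell, 3 of 17 macrophage and dendritic cell, 3 of 3 neutrophil and 2 of 10 CD8 and NK cell markers tested were higher in the single-number set, and 0 of each in the second-number set. Of the 10 MHC class II genes, 2 were higher than uninjured in the single-number set and 0 in the second-number set. Over all tested genes, 5.33% were higher than uninjured in the single-number set and 2.59% in the second-number set. The part of such cells in the set difference was not tested.

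Between the 2 sets of the same condition, 111 of 11464 tested genes were higher (0.968%) and 297 lower (2.59%) in the single-number set with adjusted p-values under 0.05 in the quasi-likelihood test of edgeR, and 2026 genes had an unadjusted p under 0.05. The smallest p-values were those of lower Fos, Rbm3, Pabpc1, Junb and Ppp1r15a in the single-number set. At the study's threshold of p under 1e-06 and a 2-fold change, 0 genes were higher and 11 lower, and with adjusted p-values under 0.05 and a 2-fold change 11 were higher and 98 lower. The 3 libraries of one set did not overlap the 3 of the other for 1142 genes higher (9.96%) and 1074 lower (9.37%) in the single-number set. The median log2 difference over all tested genes was -0.01.

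The counts called rested on single libraries and on the pooled spread of all 19. Without library 4_2, 17 genes were higher and 104 lower, without library 1 46 and 163, and the higher count alone moved beyond 1.5 times without library 2 (59), library 5 (47) and library 1_2 (214). Fitted on the 6 libraries alone, 5 genes were higher and 37 lower. Of the 65 named genes called in the fit to all 19, 22 kept the call in that fit and 42 lost it (adjusted p from 0.0606 to 0.291), and Mir17hg was not tested there. The 22 were Fos, Junb, Jun, Ppp1r15a, Rbm3, Pabpc1, Trib1, Dusp1, Egr2, Cirbp, Hnrnpl, Prpf8, Rnf145, Plod1, Lman2l, Mirt1, Gm8369, Lars2, RN45S, Rps16, Rps24 and Rpl23. With the same-numbered libraries alone 32 lost it, Egr2, Cirbp and Prpf8 of these 22 among them. Against the 5 uninjured CD44low libraries, the single-number set had 611 genes higher (5.33%) and 620 lower (5.41%), and the second-number set 297 higher (2.59%) and 194 lower (1.69%). Both comparisons share the uninjured libraries. Without library 1 the single-number set had 229 and 218 genes, and without library 2 401 and 359. The second-number set had 92 and 56 without library 1_2, 124 and 50 without library 4_2, and 1031 and 561 without library 5_2. Its lower count was 110, 129 and 123 without uninjured CD44low libraries 1, 2 and 3.

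Fos, Junb and Jun, subunits of the dimeric factor AP-1, were lower in the single-number set. Fos had 13.5, 16.4 and 14.1 CPM in libraries 1, 2 and 5 and 141, 138 and 232 CPM in libraries 1_2, 4_2 and 5_2. In the 5 uninjured CD44low libraries it had 165, 316, 315, 189 and 288 CPM. All 3 single-number libraries thus lay far below the other 8, while library 5_2 lay within the uninjured range and 1_2 and 4_2 somewhat below it. The log2 fold change between the sets was -3.53 (SE 0.32, adjusted p = 1.46e-06). Against uninjured CD44low it was -4.11 (adjusted p = 4.8e-08) for the single-number set and -0.58 (adjusted p = 0.173) for the second-number set. In CD44high Tregs, where only single-number labels occur, Fos had 271 to 567 CPM in 4 uninjured and 29.1 to 48.7 CPM in 4 injured libraries, and these ranges did not overlap.

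Junb, a further AP-1 subunit, had 423, 399.6 and 422 CPM in the single-number set and 1137, 880.5 and 1087 CPM in the second-number set. The uninjured CD44low libraries had 1279, 1767, 1532, 1182 and 1089 CPM. The single-number libraries were again the lowest, and library 4_2 lay below the uninjured range while 1_2 lay within it and 5_2 just below its lower end. The difference between sets was -1.32 on the log2 scale (SE 0.15, adjusted p = 3.64e-05), with -1.72 (adjusted p = 8.27e-08) and -0.40 (adjusted p = 0.0852) for the single-number and the second-number set against uninjured. Taking out the trend on transcript length, an alternative chosen after seeing the data, put the second-number set past the threshold too (adjusted p = 0.0187). Jun had 72.5, 109 and 115 CPM against 232, 216 and 326 CPM, with 380.1 to 483 CPM in uninjured libraries, so that both sets lay below the uninjured range and the single-number set lowest (log2 fold change -1.38, SE 0.19, adjusted p = 0.000243). Against uninjured, Jun was at -2.13 (adjusted p = 8.27e-08) in the single-number set and at -0.75 (adjusted p = 0.0135) in the second-number set, the latter call being lost without library 1_2 (adjusted p = 0.0843) or 4_2 (adjusted p = 0.0870).

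Of the 11 tested members of the AP-1 list, 3 passed the test, all lower in the single-number set, and 0 were higher. Here and in the lists below, counts between sets stand beside 0.968% of all tested genes higher and 2.59% lower. The list's median log2 difference was -0.86, against -0.01 over all genes, and 9 of the 11 values were negative. Fosb was at -2.11 without passing the threshold, while Batf, a partner factor of effector Tregs, was at 0.10. Against uninjured CD44low the list's median was -1.18 in the single-number set and -0.03 in the second-number set. 4 further members were too low to be tested. In the plot of marker levels by library the gap between the sets can be read beside the other groups.

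**Figure D1:**
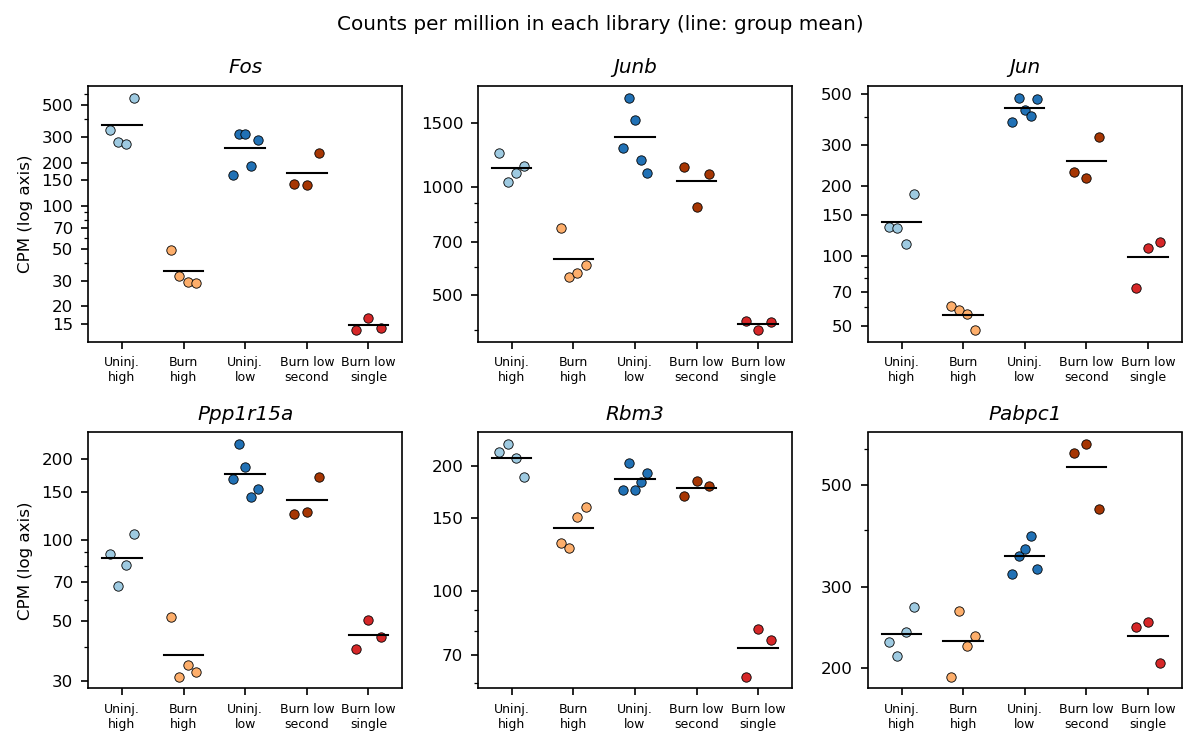
CPM (log axis) of Fos, Junb, Jun, Ppp1r15a, Rbm3 and Pabpc1 in each of the 19 libraries, as points, with the group mean as a line. Uninj. is uninjured, and single and second are the single-number and second-number sets of injured CD44low libraries. The 3 single-number libraries lie below all second-number libraries in each panel, for Fos at 13.5 to 16.4 against 138 to 232 CPM.

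Trib1, Zfp36 and 7 further immediate-early genes were lower too. Of 27 tested members of that list, 9 were lower in the single-number set and 0 higher, with a median of -0.26, beside 2.59% and 0.968% of all tested genes. The 9 were Rhob (-1.75 on the log2 scale), Per1 (-1.73), Sik1 (-1.50), Trib1 (-1.43), Zfp36l2 (-0.90), Pim1 (-0.88), Rgs2 (-0.78), Zfp36 (-0.62) and Zfp36l1 (-0.43). Here and in the lists below, members given by a log2 value alone were named after their values were seen. Trib1, a pseudokinase scaffold, had 22.3, 20.7 and 27.5 CPM against 60.9, 62.4 and 66.9 CPM, with 41.0 to 73.5 CPM in uninjured libraries, so that the second-number set lay within the uninjured range (adjusted p = 0.000133). Zfp36, which drives decay of AU-rich mRNAs, had 306, 357 and 289.8 CPM against 469.7, 473 and 525 CPM and 417 to 585 CPM (adjusted p = 0.00360). Without library 4_2, 5 of the 27 were lower. In the fit to the 6 libraries alone, 1 was. Against uninjured CD44low, 3 of the 27 were higher and 8 lower in the single-number set, beside 5.33% and 5.41% of all tested genes. In the second-number set 3 were higher and 1 lower, beside 2.59% and 1.69%.

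Dusp1 and Spry1, feedback inhibitors of MAP kinase signalling, were also lower. Of 12 tested members of their list 2 were lower in the single-number set and 0 higher (median -0.24), beside 2.59% and 0.968% of all tested genes. Dusp1, a nuclear phosphatase of MAP kinases, had 208, 206 and 212 CPM against 428, 415 and 598 CPM, and 389.9 to 578 CPM in uninjured libraries. The second-number and uninjured ranges overlapped, and the single-number libraries were nearly equal to each other (log2 fold change -1.20, SE 0.19, adjusted p = 0.00101). Spry1, a Sprouty inhibitor of receptor signalling, was lower by a smaller amount (log2 fold change -0.57, SE 0.15, adjusted p = 0.0351).

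Early factors of the EGR, NR4A and KLF families were called in both directions. Of 19 tested, 1 was higher and 2 lower in the single-number set, and the median was 0.02. Over all tested genes 0.968% were higher and 2.59% lower. Egr2, which is induced by antigen receptor signals, had 106, 87.7 and 99.7 CPM in the single-number and 49.8, 46.0 and 55.7 CPM in the second-number set, and 51.3 to 89.3 CPM in uninjured libraries (log2 fold change 0.95, SE 0.19, adjusted p = 0.00539). Egr1, named after its values were seen, had 273, 276 and 232 CPM against 185, 167 and 213 CPM, without overlap and short of the threshold (log2 fold change 0.47, adjusted p = 0.155). Klf2, a factor of resting T cells, had 785, 893 and 675 CPM against 999.8, 1132 and 1009 CPM, a small difference that passed (log2 fold change -0.42, SE 0.11, adjusted p = 0.0417). Klf11 was lower by more from a low level, at 6.13 to 10.8 against 17.1 to 24.6 CPM (log2 fold change -1.30, SE 0.24, adjusted p = 0.00334).

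Of 17 tested factors and inhibitors of the NF-kB pathway, 1 was called higher and 2 lower, with a median of -0.000645. Over all tested genes 0.968% were higher and 2.59% lower. Nfkb1, which encodes p105 and p50, had 66.1, 82.1 and 70.6 CPM against 164, 112 and 83.4 CPM, and 61.0 to 67.0 CPM in uninjured libraries. Here the single-number set stood near the uninjured level, at 0.20 (adjusted p = 0.393), and the second-number set above it, at 0.92 (adjusted p = 0.00128). Nfkbiz, a nuclear inhibitor-like cofactor, had 47.2, 59.2 and 53.3 CPM against 58.4, 90.6 and 129 CPM, and its sets overlapped in library 1_2 (log2 fold change -0.80, SE 0.20, adjusted p = 0.0222). Bcl3, another nuclear member of the family, was higher in the single-number set (log2 fold change 0.55, SE 0.14, adjusted p = 0.0267). Leaving out 1 library took the quasi-likelihood call from Spry1, Klf2, Nfkb1, Nfkbiz and Bcl3 without library 1 (adjusted p from 0.0861 to 0.126), from Spry1 and Bcl3 without library 2 (adjusted p from 0.0882 to 0.146), from Klf2, Nfkbiz and Bcl3 without library 5 (adjusted p from 0.0555 to 0.152), from Nfkb1 without library 1_2 (adjusted p = 0.0747), from Spry1, Egr2, Klf2, Nfkbiz and Bcl3 without library 4_2 (adjusted p from 0.0528 to 0.196), and from Spry1, Nfkbiz and Bcl3 without library 5_2 (adjusted p from 0.0933 to 0.123).

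Ppp1r15a, which encodes the GADD34 subunit that directs a phosphatase to eIF2α, had 39.6, 50.4 and 43.5 CPM in the single-number set and 125, 127 and 171 CPM in the second-number set. The uninjured CD44low libraries had 169, 227, 187, 144 and 154 CPM. Single-number libraries were far below the uninjured level, and the second-number set reached the uninjured range in library 5_2 only. The difference between sets was -1.66 on the log2 scale (SE 0.20, adjusted p = 7.73e-05), and those against uninjured were -1.98 (adjusted p = 9.3e-07) and -0.32 (adjusted p = 0.288) for the single-number and the second-number set. Of 28 tested integrated stress response genes, 1 was higher and 2, Ppp1r15a among them, were lower, and the median was 0.07. Over all tested genes 0.968% were higher and 2.59% lower. Atf4, the factor translated when eIF2α is phosphorylated, had 39.1 to 53.8 CPM against 49.0 to 59.6 CPM (adjusted p = 0.699), and its target Ddit3 18.2 to 22.1 against 16.4 to 19.996 CPM (adjusted p = 0.826), both named after their values were seen. Sesn2, a stress-induced inhibitor of mTORC1, was higher in the single-number set (log2 fold change 0.83, SE 0.22, adjusted p = 0.0406) and Cebpb lower (log2 fold change -0.71, SE 0.20, adjusted p = 0.0497). The quasi-likelihood call was lost for Cebpb without library 1 (adjusted p = 0.0896), Sesn2 and Cebpb without library 2 (adjusted p from 0.117 to 0.170), Sesn2 and Cebpb without library 5 (adjusted p from 0.106 to 0.129), Sesn2 and Cebpb without library 1_2 (adjusted p from 0.0893 to 0.143), and Sesn2 and Cebpb without library 4_2 (adjusted p from 0.120 to 0.166).

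Chaperones of the endoplasmic reticulum were among the genes higher in the single-number set. Of the 22 unfolded protein response genes, all tested, 6 were higher and 0 lower, with a median of 0.23 against -0.01 over all genes. Hsp90b1, the HSP90 of the endoplasmic reticulum, had 676, 634 and 645 CPM against 382, 466 and 438 CPM, and 402 to 458 CPM in uninjured libraries (log2 fold change 0.60, SE 0.10, adjusted p = 0.00125). Hspa5, which encodes the chaperone BiP, had 1385, 1160.0 and 1344 CPM against 1010.3, 747 and 738 CPM, and 686 to 814 CPM in uninjured libraries (log2 fold change 0.64, SE 0.13, adjusted p = 0.00658). The second-number set overlapped the uninjured range for both genes, though library 1_2 stood above it for Hspa5. Against uninjured, Hspa5 was at 0.81 (adjusted p = 0.000119) in the single-number set and at 0.17 (adjusted p = 0.402) in the second-number set. The other 4 were the protein disulfide isomerases Pdia6 (0.58 on the log2 scale), Pdia3 (0.46) and Pdia4 (0.41) and the cochaperone Dnajb11 (0.48). These members other than Hsp90b1 were named after their values were seen. Xbp1, the spliced factor of this response, was at 0.29 and did not pass. The count of 6 was 1 without library 4_2, 2 without library 1, 3 without library 2 and 2 without library 5_2, and 0 in the fit to the 6 libraries alone. The median of the 22 against uninjured was 0.32 in the single-number set and 0.03 in the second-number set.

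Of 30 tested cytosolic heat shock genes, 4 were higher in the single-number set and 0 lower (median 0.23). They were the cytosolic HSP90 Hsp90ab1 and its cochaperones Stip1 (0.76), Chordc1 (0.71) and St13. Hsp90ab1 had 2635, 2366 and 2229 CPM against 1732, 1436 and 1191 CPM, and 1041 to 1296 CPM in uninjured libraries (log2 fold change 0.73, SE 0.15, adjusted p = 0.00640). All single-number libraries were above all others of the CD44low fraction. St13, which links HSC70 and HSP90, had 296, 252 and 234 CPM against 158, 161 and 152 CPM and 109 to 149 CPM (log2 fold change 0.73, SE 0.14, adjusted p = 0.00334). Against uninjured, Hsp90ab1 was at 1.07 (adjusted p = 1.97e-05) in the single-number set and at 0.34 (adjusted p = 0.130) in the second-number set. The inducible HSP70 gene Hspa1a, named after its values were seen and near-identical to Hspa1b, so that its reads could be split between them, was low in both sets. It had 0 to 0.498 CPM in the single-number and 0.150 to 0.690 CPM in the second-number set and 2.03, 10.9, 8.23, 10.5 and 37.6 CPM in the uninjured libraries, so that both sets lay below every uninjured library, at -5.81 (adjusted p = 0.000895) and -5.08 (adjusted p = 0.00407). With 1 library left out, the quasi-likelihood call was taken from Pdia6, Pdia3, Pdia4 and Dnajb11 without library 1 (adjusted p from 0.0717 to 0.201), from Pdia3, Pdia4 and Dnajb11 without library 2 (adjusted p from 0.0570 to 0.104), from Dnajb11 without library 5 (adjusted p = 0.0523), from Hspa5, Pdia6, Pdia3, Pdia4 and Dnajb11 without library 4_2 (adjusted p from 0.0712 to 0.222), and from Pdia6, Pdia3, Pdia4 and Dnajb11 without library 5_2 (adjusted p from 0.0554 to 0.123).

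**Figure D2:**
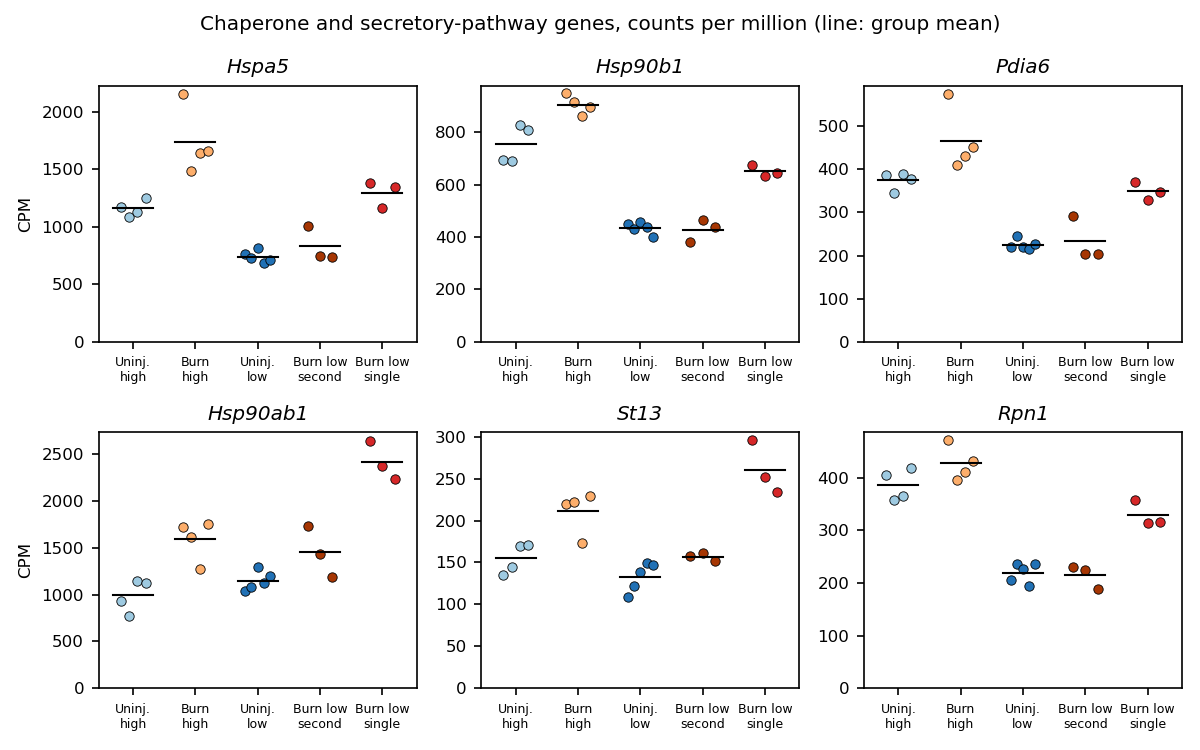
CPM of Hspa5, Hsp90b1, Pdia6, Hsp90ab1, St13 and Rpn1 in each library, as points, with the group mean as a line and axes from 0. Uninj. is uninjured, and single and second are the 2 sets of injured CD44low libraries. The single-number libraries of Hsp90b1, at 634 to 676 CPM, lie above the second-number libraries at 382 to 466 CPM, and injured CD44high libraries are higher still at 863 to 948 CPM.

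Rbm3, a cold-inducible RNA-binding protein, had 62.0, 80.7 and 76.0 CPM in the single-number set and 169.6, 184 and 179 CPM in the second-number set. The uninjured CD44low libraries had 175, 203, 175, 183 and 192 CPM. The second-number set stood at the uninjured level and the single-number set well below it, with a difference between sets of -1.28 on the log2 scale (SE 0.12, adjusted p = 1.84e-06). Against uninjured the values were -1.35 (adjusted p = 8.27e-08) and -0.07 (adjusted p = 0.762). Cirbp, the other classical cold-inducible member, had 73.9, 99.1 and 67.8 CPM against 139, 182 and 189 CPM, with 144 to 206 CPM in uninjured libraries (log2 fold change -1.08, SE 0.23, adjusted p = 0.00890). Of the 31 tested RBM proteins these were the 2 that were lower, and Rbm5, a splicing regulator, was the 1 higher, at 220.1 to 246 against 145 to 171 CPM (log2 fold change 0.59, SE 0.11, adjusted p = 0.00259). The list's median was 0.01, and over all tested genes 0.968% were higher and 2.59% lower.

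Pabpc1, the main cytoplasmic poly(A)-binding protein, had 246, 252 and 206 CPM in the single-number set and 587, 615 and 444 CPM in the second-number set. The uninjured CD44low libraries had 321, 351, 364, 389 and 329 CPM. Here the 2 sets lay on opposite sides of the uninjured range, without overlap, and differed by -1.23 on the log2 scale (SE 0.14, adjusted p = 2.53e-05). Against uninjured the single-number set was at -0.58 (adjusted p = 0.00502) and the second-number set at 0.65 (adjusted p = 0.00406). Of the 26 tested genes of polyadenylation and poly(A) binding, Pabpc1 was the 1 lower and Papolg, a nuclear poly(A) polymerase, the 1 higher, with 85.3, 83.3 and 103 against 36.0, 46.9 and 62.1 CPM (log2 fold change 0.90, SE 0.17, adjusted p = 0.00320). The list's median was -0.08, and over all tested genes 0.968% were higher and 2.59% lower.

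Splicing genes were called in both directions, beside 0.968% of all tested genes higher and 2.59% lower. Of 24 SR factors, Srsf7 was higher (log2 fold change 0.67, SE 0.19, adjusted p = 0.0462) and Son lower (log2 fold change -0.50, SE 0.12, adjusted p = 0.0187), with a list median of -0.03. Of 11 SR protein kinases and their relatives, Hipk1 was lower (log2 fold change -1.05, SE 0.24, adjusted p = 0.0172). Of 32 hnRNP proteins, which coat nascent transcripts, Hnrnpa2b1 was higher (log2 fold change 0.36, SE 0.10, adjusted p = 0.0487) and Hnrnpl and Hnrnpd lower, with a list median of -0.11. Hnrnpl, a regulator of alternative splicing in T cells, had 179, 195 and 169 CPM against 293, 361 and 320.2 CPM, and 242 to 284 CPM in uninjured libraries (log2 fold change -0.84, SE 0.14, adjusted p = 0.00119). The single-number set lay below the uninjured range and the second-number set above it. Hnrnpd, which binds AU-rich mRNAs, had 208, 233 and 180.2 CPM against 296, 301 and 357 CPM (log2 fold change -0.62, SE 0.12, adjusted p = 0.00423). Of 46 core spliceosome subunits, Prpf8, the scaffold of the catalytic centre, and Sf3a2 were lower and 0 were higher, and the median was -0.00485. Prpf8 had 66.8, 93.0 and 108 CPM against 185, 293 and 300.3 CPM, and 131 to 210.3 CPM in uninjured libraries (log2 fold change -1.54, SE 0.27, adjusted p = 0.00209). Its spread was wide within both sets. Sf3a2 was lower by less (log2 fold change -0.52, SE 0.13, adjusted p = 0.0265).

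RNA decay and helicase genes were called in both directions as well, beside the same 0.968% and 2.59% of all tested genes. Of 51 tested decay factors, 1 was higher and 0 lower, which was Exosc10, a nuclease of the nuclear exosome (log2 fold change 0.38, SE 0.10, adjusted p = 0.0299), and the median was -0.08. Of 30 DEAD-box helicases, Ddx1 was higher (log2 fold change 0.43, SE 0.11, adjusted p = 0.0343) and Ddx5, a cofactor of transcription and splicing, lower, with 445, 478 and 354 against 516, 749 and 728 CPM and 672 to 814 CPM in uninjured libraries (log2 fold change -0.64, SE 0.14, adjusted p = 0.0135). Calls of the quasi-likelihood test were lost in Srsf7, Son, Hipk1, Hnrnpa2b1, Sf3a2, Exosc10 and Ddx1 without library 1 (adjusted p from 0.0779 to 0.243), Srsf7, Hnrnpa2b1, Sf3a2 and Exosc10 without library 2 (adjusted p from 0.0807 to 0.138), Srsf7, Exosc10, Ddx1 and Ddx5 without library 5 (adjusted p from 0.0523 to 0.148), Exosc10 without library 1_2 (adjusted p = 0.0553), Cirbp, Srsf7, Hipk1, Hnrnpa2b1, Sf3a2, Exosc10, Ddx1 and Ddx5 without library 4_2 (adjusted p from 0.0534 to 0.257), and Srsf7, Hnrnpa2b1 and Exosc10 without library 5_2 (adjusted p from 0.0515 to 0.138). Rbm3, Pabpc1 and Hnrnpl kept their calls without each library in turn.

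**Figure D3:**
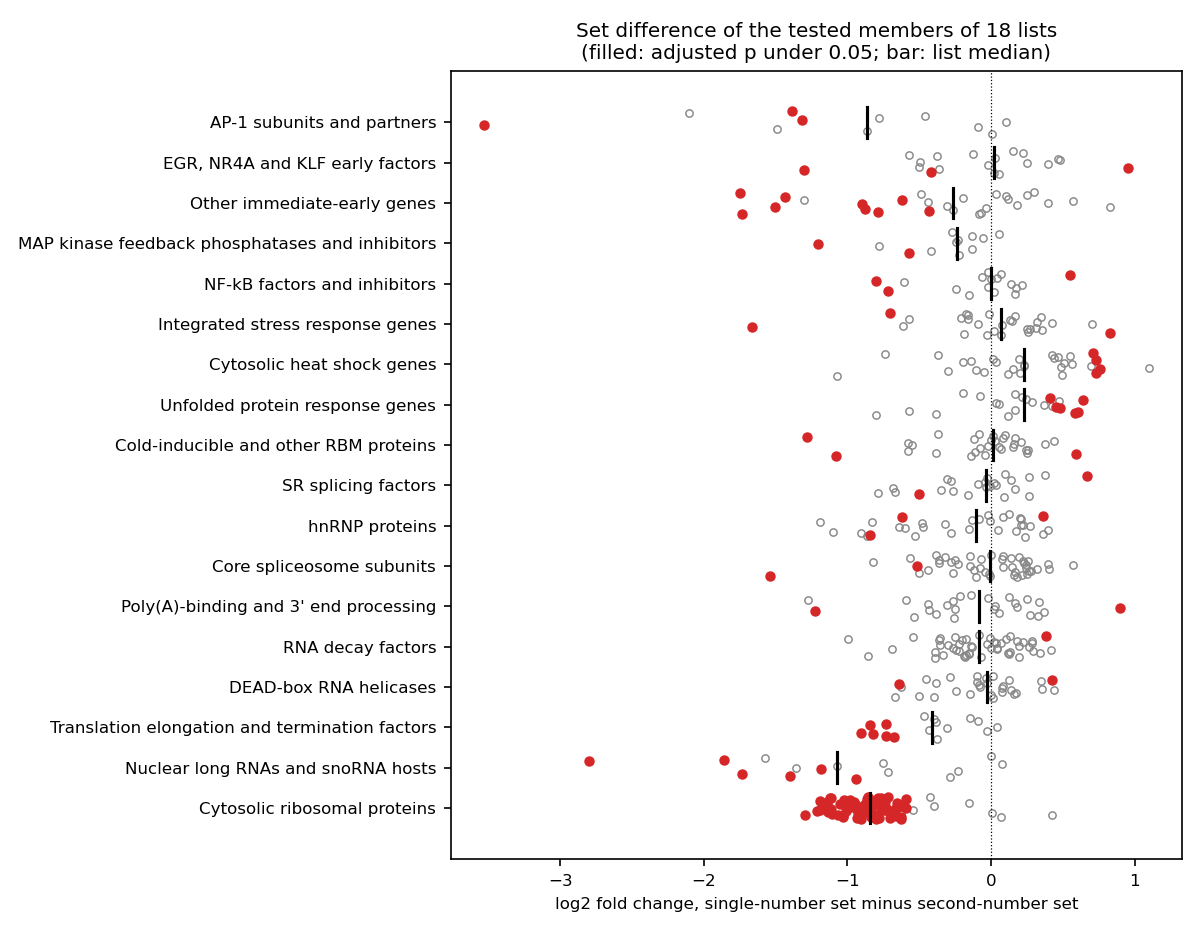
Log2 fold change between the single-number and the second-number set for each tested member of 18 gene lists, 1 point per gene. Filled points passed an adjusted p of 0.05 and vertical bars are list medians, and the position within a row carries no value. Ribosomal protein genes lie together near -0.84, while members of the splicing and decay lists spread about 0.

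The group with the most members called was that of cytosolic ribosomal proteins. Of 85 genes in the list 78 were tested, and 70 of them were lower in the single-number set and 0 higher, with a median of -0.84. Their share of all counts was 2.12, 2.13 and 1.59% in libraries 1, 2 and 5 and 3.24, 3.87 and 2.75% in libraries 1_2, 4_2 and 5_2. It was 2.53, 2.86, 2.81, 3.11 and 3.13% in the uninjured CD44low libraries. Single-number libraries were below all uninjured ones, and the second-number set lay within and above the uninjured range. Against uninjured CD44low, 61 of the 78 were lower and 1 higher in the single-number set (median -0.63) and 1 was higher and 0 lower in the second-number set (median 0.22). Both CD44high groups had shares below those of uninjured CD44low and of the second-number set, at 1.25% to 1.54% uninjured and 1.49% to 1.95% injured. The injured CD44high range overlapped the single-number set, whose library 5 was at 1.59%. Many of these genes have near-identical processed pseudogenes, so their counts are uncertain. Without library 4_2, 36 of the 78 were lower, and in the fit to the 6 libraries alone 11.

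As examples chosen after their values were seen, Rps16 had 127, 141 and 107 CPM against 259, 310.2 and 199 CPM, and 183 to 223 CPM in uninjured libraries (log2 fold change -1.03, SE 0.16, adjusted p = 0.000835), and Rpl39 had 61.7, 59.4 and 28.7 CPM against 100.2, 167 and 101 CPM (log2 fold change -1.29, SE 0.26, adjusted p = 0.00605). Library 5 was the lowest of the 6 and library 4_2 the highest for both. Of 16 tested translation factors, 6 were lower in the single-number set and 0 higher, with a median of -0.41. They were Fau, made as a ubiquitin-like fusion with ribosomal protein S30, Rack1 (-0.84), the translocase Eef2, Tpt1 (-0.73), Eef1b2 (-0.73) and Eef1a1 (-0.68). Eef2 had 1268, 1384 and 926 CPM against 2327, 2281 and 1702 CPM, and 1774 to 1846 CPM in uninjured libraries (log2 fold change -0.82, SE 0.15, adjusted p = 0.00259). Fau had 114, 121 and 85.4 CPM against 191, 248 and 163 CPM (log2 fold change -0.91, SE 0.16, adjusted p = 0.00239). Most of these genes, like Pabpc1, are known as 5′ terminal oligopyrimidine mRNAs, whose translation follows mTORC1.

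A list of nuclear long RNAs was tested together with host genes of small nucleolar RNAs, which guide the modification of ribosomal RNA. Of its 15 tested members 6 were lower in the single-number set and 0 higher, with a median of -1.08. Gas5 had 74.7, 68.5 and 61.8 CPM against 146, 147 and 101 CPM, and 77.2 to 101 CPM in uninjured libraries (log2 fold change -0.94, SE 0.16, adjusted p = 0.00209). Snhg1 had 2.08, 3.86 and 2.14 CPM against 9.48, 10.4 and 7.35 CPM (log2 fold change -1.73, SE 0.39, adjusted p = 0.0147) and Zfas1 8.63, 9.72 and 4.99 CPM against 16.5, 17.98 and 18.8 CPM (log2 fold change -1.19, SE 0.31, adjusted p = 0.0335). Mir17hg, host of the miR-17 cluster and no host of small nucleolar RNAs, had 0, 1.25 and 0.428 CPM against 4.48, 1.44 and 6.45 CPM, at the limit of detection in library 1 (log2 fold change -2.80, SE 0.79, adjusted p = 0.0490). These 4 were named after their values were seen, and the others called were Snhg6 (-1.86) and Snhg8 (-1.40). The count of 6 was 1 without library 1, 1 without library 5 and 2 without library 4_2, and 0 in the fit to the 6 libraries alone. In fits with 1 library left out, the quasi-likelihood call was lost by Zfas1, Snhg1 and Mir17hg without library 1 (adjusted p from 0.0838 to 0.184), Zfas1, Snhg1 and Mir17hg without library 5 (adjusted p from 0.0611 to 0.122), Mir17hg without library 1_2 (adjusted p = 0.0593), Rpl39, Zfas1 and Snhg1 without library 4_2 (adjusted p from 0.0650 to 0.106), and Zfas1 and Mir17hg without library 5_2 (adjusted p from 0.0601 to 0.134).

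Ribosomal RNA itself also differed. RN45S, the 45S precursor, took 0.0777, 0.0697 and 0.0292% of all counts in the single-number set and 0.310, 0.786 and 0.459% in the second-number set, against 0.396, 0.390, 0.337, 0.390 and 0.442% in the uninjured libraries. It had 777, 696 and 281 CPM against 3202, 7886 and 4548 CPM (log2 fold change -3.16, SE 0.47, adjusted p = 0.000642). The 45S precursor carries no poly(A) tail, whereas SMART-Seq cDNA is primed from one, and the part of the library step in this difference was not tested. Lars2, the mitochondrial leucyl-tRNA synthetase, had 657, 747 and 412 CPM against 4442, 2895 and 1222 CPM, and 1071 to 1460.1 CPM in uninjured libraries (log2 fold change -2.24, SE 0.32, adjusted p = 0.000488), with a wide spread in the second-number set. Scaling the libraries without ribosomal genes, RN45S and Lars2, chosen after seeing the data, gave 112 genes higher and 301 lower.

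**Figure D4:**
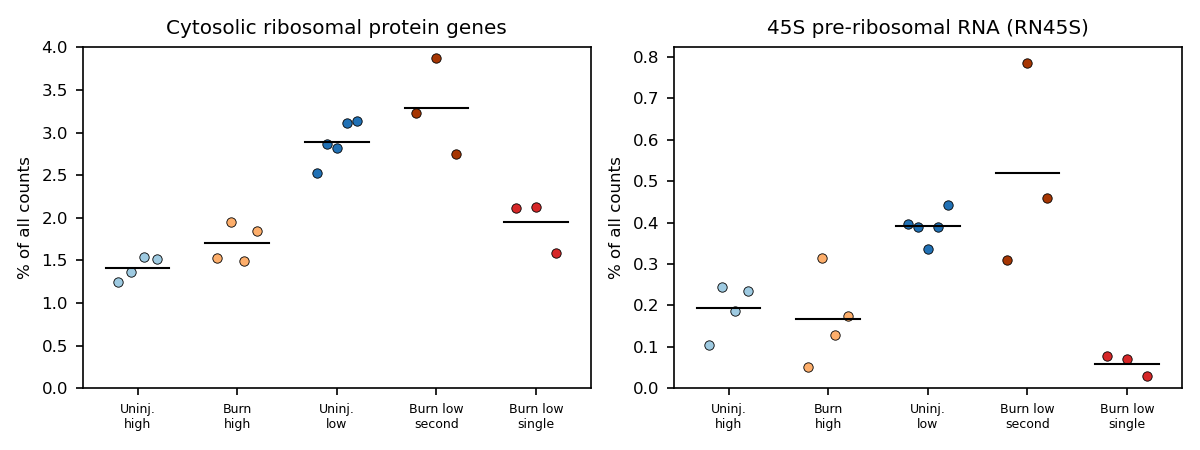
Share of all counts, in percent, taken by cytosolic ribosomal protein genes (left) and by the 45S pre-ribosomal RNA RN45S (right) in each library, as points, with the group mean as a line and axes from 0. Uninj. is uninjured, and single and second are the 2 sets of injured CD44low libraries. The single-number set has ribosomal protein shares of 1.59% to 2.13%, below the 2.75% to 3.87% of the second-number set.

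Genes outside the lists were among those of smallest p as well. Higher in the single-number set with no overlap were Rnf145, a ubiquitin ligase of the endoplasmic reticulum, with 301, 258 and 301 CPM against 139, 134 and 177 CPM (log2 fold change 0.93, SE 0.13, adjusted p = 0.000266), and Lcp1, the actin-bundling L-plastin, with 3804, 3323 and 3705 CPM against 2274, 2519.7 and 2636 CPM (log2 fold change 0.54, SE 0.08, adjusted p = 0.00109). Plod1, a collagen lysyl hydroxylase, had 43.3, 34.9 and 37.2 CPM against 15.2, 16.002 and 15.3 CPM and 10.9 to 22.6 CPM in uninjured libraries (log2 fold change 1.31, SE 0.21, adjusted p = 0.00117). Rpn1, a subunit of the oligosaccharyltransferase, had 358, 315 and 316 CPM against 231, 224 and 189 CPM and 194 to 236 CPM in uninjured libraries (log2 fold change 0.62, SE 0.11, adjusted p = 0.00255). For both, the second-number set lay within or at the edge of the uninjured range. Tm9sf2, a membrane protein of endosomes and the Golgi, was at 0.59 on the log2 scale (adjusted p = 0.00172), and Lman2l, related to cargo lectins, had 98.9, 65.0 and 91.0 CPM against 36.7, 30.4 and 23.4 CPM and 11.7 to 20.9 CPM in uninjured libraries, with both sets above the uninjured range (log2 fold change 1.49, SE 0.27, adjusted p = 0.00255). Parp3, a DNA repair polymerase of ADP-ribose, was at 0.73 (adjusted p = 0.00350).

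Rsrp1, an arginine- and serine-rich protein, was the reverse case, with the second-number set the lower. It had 134, 178 and 207 CPM in the single-number and 114, 62.2 and 69.3 CPM in the second-number set, and 199 to 279 CPM in uninjured libraries (log2 fold change 1.08, SE 0.20, adjusted p = 0.00348). Against uninjured it was at -0.42 (adjusted p = 0.130) in the single-number set and at -1.50 (adjusted p = 7.34e-05) in the second-number set. Serinc3, a membrane protein that restricts retroviruses, was higher than uninjured in both sets and more so in the second-number set, with 1294, 1261 and 1093 CPM, 1647, 2017 and 2115 CPM and 880.0 to 1053 CPM in single-number, second-number and uninjured libraries (log2 fold change -0.66, SE 0.10, adjusted p = 0.000642). Against uninjured it was at 0.32 (adjusted p = 0.0222) and 0.98 (adjusted p = 3.94e-07), the first of which was lost without library 1 (adjusted p = 0.109) or 2 (adjusted p = 0.0643). Mirt1, a long noncoding RNA, had 3.12, 2.99 and 2.71 CPM against 12.9, 10.97 and 12.5 CPM and 14.4 to 20.9 CPM (log2 fold change -2.04, SE 0.28, adjusted p = 0.000266), and Gm8369 25.7, 31.3 and 30.5 CPM against 61.4, 85.6 and 62.0 CPM and 43.6 to 56.5 CPM (log2 fold change -1.25, SE 0.17, adjusted p = 0.000266). Lcp1, Hsp90b1, Tm9sf2, Rpn1, Rsrp1, Parp3 and Serinc3 kept the call between sets without each library of the 2 sets in turn, but in the fit to the 6 libraries alone all 7 lost it (adjusted p from 0.0784 to 0.111), as did Rsrp1 (0.0867) and Parp3 (0.0939) with the same-numbered libraries alone.

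Across the named genes the position of the 2 sets against uninjured CD44low can be read side by side. For Fos the values were -4.11 and -0.58 on the log2 scale for the single-number and the second-number set, for Dusp1 -1.21 and -0.00163, and for Trib1 -1.21 and 0.22, so that the single-number set stood apart from the second-number set. In CD44high Tregs, injured libraries lay below uninjured ones for Dusp1 as for Fos, at 212 to 293 against 548 to 969 CPM. Trib1 had 43.2 to 57.4 CPM in injured and 61.8 to 76.6 CPM in uninjured CD44high libraries. For Pabpc1, Hnrnpl, Prpf8, Eef2 and Rps16 the single-number set was negative and the second-number set positive, as in Prpf8 with -0.90 and 0.64. By the quasi-likelihood test the positive value passed for Pabpc1 (adjusted p = 0.00406). It did not pass for Hnrnpl (0.142), Prpf8 (0.108) and Eef2 (0.305). For Hspa5 and Pdia6 the single-number set was positive at 0.81 and 0.63 and the second-number set nearer 0 at 0.17 and 0.05.

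**Figure D5:**
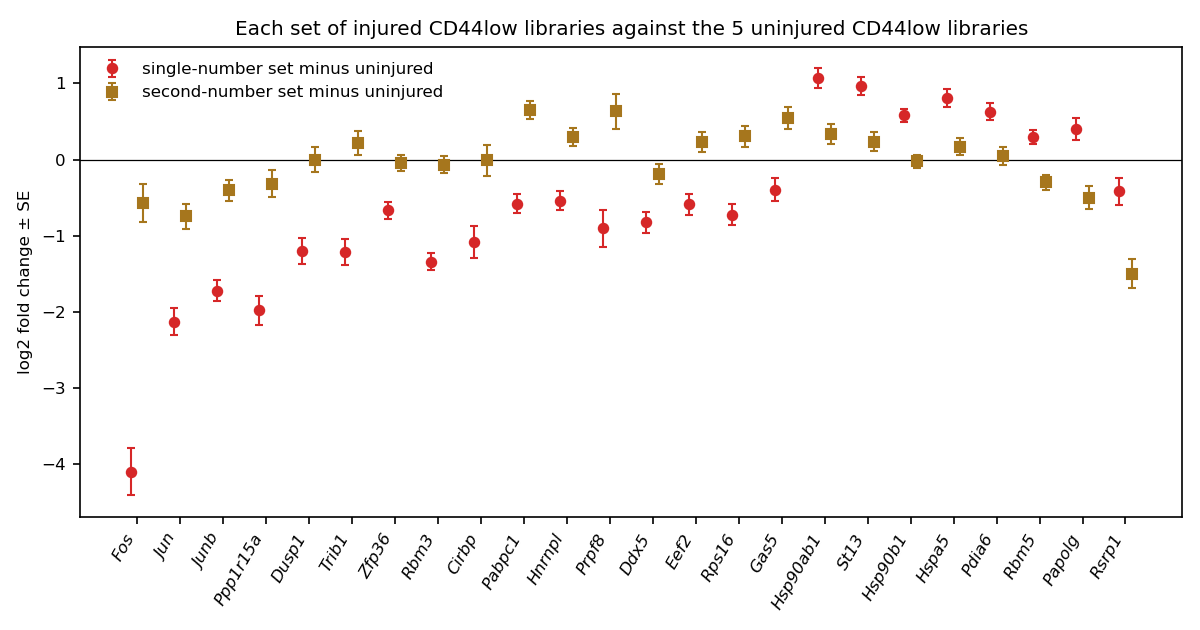
Log2 fold change (± SE) of 24 genes in each set of injured CD44low libraries against the same 5 uninjured CD44low libraries, circles for the single-number and squares for the second-number set. For Fos the values are -4.11 and -0.58, and for Rsrp1 -0.42 and -1.50.

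The remaining lists are given by their counts, beside which 0.968% of all tested genes were higher and 2.59% lower in the single-number set. Of 15 tested glucocorticoid response genes, 5 were lower in the single-number set and 0 higher (median -0.38), 2 of them, Dusp1 and Per1, being immediate-early genes too. Fkbp5, a cochaperone of the glucocorticoid receptor, had 54.9, 63.5 and 81.0 CPM against 87.1, 133 and 165 CPM, and 55.9 to 70.4 CPM in uninjured libraries (log2 fold change -0.95, SE 0.20, adjusted p = 0.00979). Its value against uninjured was 0.06 (adjusted p = 0.878) in the single-number set, turning to -0.10 without library 5 (adjusted p = 0.805), and 1.00 (adjusted p = 0.00354) in the second-number set. Il7r, the interleukin 7 receptor, had 242, 284 and 259.9 CPM against 325, 438 and 421 CPM and 101 to 156 CPM, was lower in the single-number set (log2 fold change -0.59, SE 0.14, adjusted p = 0.0197) and was above uninjured in both sets, at 0.95 (adjusted p = 5.18e-05) and 1.54 (adjusted p = 1.53e-07). Both were named after their values were seen. Of 20 clock genes 1 was lower (Per1) and 0 higher, of 29 T cell receptor activation genes 2 were higher and 0 lower, of 33 interferon-stimulated genes 2 were higher and 0 lower, and of 22 resting T cell genes 0 were higher and 4 lower. Of 26 CD44high Treg markers 0 were higher and 2 lower, of 14 p53 targets 0 were higher and 1 lower, and of 16 oxidative stress genes, 23 S phase genes and 24 G2 and M phase genes 0 were called in either direction by edgeR, with 4, 8 and 5 at an unadjusted p under 0.05 and 2, 1 and 1 called by DESeq2. The S phase median was 0.34 and the G2 and M phase median 0.29. Removing 1 library ended the quasi-likelihood call of Fkbp5 and Il7r without library 1 (adjusted p from 0.0723 to 0.103), and Fkbp5 and Il7r without library 4_2 (adjusted p from 0.0504 to 0.119).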

How the data were processed

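Bulk RNA-seq was made from sorted Tregs of 19 samples in 4 groups (SMART-Seq v4 cDNA and Swift 2S libraries, by the study's methods). The authors deposited raw counts of reads per gene, made with STAR 2.5 through the VIPER workflow after bcl2fastq 2.18. The submitters' processing notes name the builds mm10 and mm9 with no role, with annotation and strand not given in the sources used here. Overlapping and antisense genes may therefore share reads. The protocol names no molecular identifiers, so reads are not independent molecules. The table held 24982 symbols, of which 24464 matched GENCODE vM21, 363 a RefSeq symbol and 155 neither. In all, 8091 had no count in any library, 26 had been turned into dates by a spreadsheet, and 0 columns lacked a sample.

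Counts were fitted in edgeR 4.0.16 (R 4.3.3) with TMM scaling, genes kept by filterByExpr with a count minimum of 10 (11464 tested), 5 group means, the quasi-likelihood test and Benjamini-Hochberg adjustment over all genes tested, with a call at an adjusted p under 0.05. CPM are TMM-scaled, and log2 fold changes are those of the quasi-likelihood fit. A prior count of 2 was used only for the log2 CPM of single libraries, by which overlap and pairs were read. An exact permutation test of 3 against 3 libraries cannot go below p = 0.1, so none is given. Named were 5 marker genes, in each direction the 12 genes of smallest p with no overlap between sets, up to 2 called members per direction of 16 of the 38 lists, and 5 sort markers, 1 of which is not reported here; other genes were chosen after their values were seen. The members and lists were chosen with earlier results of these data known. Promoter bases and coordinates come from RefSeq (GRCm38.p6) and were not joined to the counts by position. Alternatives were DESeq2 1.42.0, RLE scaling, no filter, the compared libraries alone, a replicate block, same-numbered libraries, other thresholds, thinning and leaving out each library. A length correction and a scaling without ribosomal genes were added after seeing the data. Figures were drawn with matplotlib 3.10.9 (Python 3.11.15).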

Additional observations from a re-analysis of the deposited data

Results flagged for a closer look

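In the groups of 4 or 5 libraries, 15 combinations of a named gene and a group had 1 library apart from the others by Dixon's ratio. Each of these groups was read for 74 named genes, and chance flags about 1 in 20 combinations, so that the count of 15 is not read as beyond chance. The 2 sets of injured CD44low Tregs have 3 libraries each and could not be tested this way. In the uninjured CD44low group, against which both sets were read, Hspa1a had 37.6 CPM in library 5 against 2.03 to 10.9 CPM in the others, Snhg1 had 11.03 CPM in library 2 against 4.60 to 5.91, and Bcl3 had 70.7 CPM in library 5 against 82.7 to 84.2. In library 1 of that group Lcp1 had 2930.4 CPM against 2724 to 2766 CPM in the other 4, and Son had 313 CPM against 245 to 260.3.

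In the uninjured CD44high group, Hspa1a had 22.6 CPM in library 5 against 4.58 to 7.01, and Cirbp had 197 CPM in library 2 against 98.1 to 115. Library 3 of that group stood apart for Sesn2 with 61.0 CPM (49.2 to 49.9 in the others), for Egr1 with 265 CPM (169 to 181) and for Hnrnpd with 298 CPM (325 to 329), and library 4 for Sf3a2 with 63.1 CPM (71.1 to 71.7). In the injured CD44high group, library 2 stood apart for Fos with 48.7 CPM against 29.1 to 32.4, for Ppp1r15a with 51.7 CPM against 31.1 to 34.3 and for Pdia4 with 589 CPM against 493 to 504, and library 3 for Nfkb1 with 74.7 CPM against 89.6 to 90.6.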

How the results depend on the processing

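Of the 65 named genes called between the sets, 19 kept the call under all 15 alternatives that keep the threshold, leave-one-out fits included, with adjusted p up to 0.0444. Counts of genes higher and lower in the single-number set, 111 and 297 as reported, were 224 and 441 by DESeq2, 5 and 37 in the fit to the 6 libraries alone, 13 and 60 with the same-numbered libraries alone (1 and 5 against 1_2 and 5_2), 0 and 11 at p under 1e-06 with 2-fold, and 11 and 98 at an adjusted p under 0.05 with 2-fold. Under these 5 settings, ribosomal protein genes lower, 70 as reported, were 73, 11, 19, 0 and 17, other immediate-early genes lower, 9 as reported, were 9, 1, 5, 1 and 4, unfolded protein response genes higher, 6 as reported, were 7, 0, 1, 0 and 0, and small nucleolar RNA hosts and nuclear RNAs lower, 6 as reported, were 6, 0, 1, 0 and 5. Against uninjured, genes higher and lower, 611 and 620 in the single-number and 297 and 194 in the second-number set as reported, were 948, 827, 643 and 375 by DESeq2, 749, 1020, 52 and 56 in the fits to the compared libraries alone, 12, 17, 11 and 1 at p under 1e-06 with 2-fold, and 114, 184, 50 and 28 at an adjusted p with 2-fold. The causes were not tested, except that a 2-fold threshold keeps fewer genes by construction.

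Leaving out 1 library gave 17 to 214 genes higher and 104 to 438 lower between sets, 36 to 74 ribosomal protein genes, 5 to 9 other immediate-early genes, 1 to 9 unfolded protein response genes and 1 to 6 host and nuclear RNA genes. Against uninjured it gave 229 to 683 higher and 218 to 570 lower in the single-number set, and 92 to 1031 higher and 50 to 561 lower in the second-number set. RLE scaling, no filter, the scaling without ribosomal genes, thinning and the length correction are not listed where the count stayed within 1.5 times. The count of host and nuclear RNA genes with the length correction was 4.

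The replicate block, by the first number of the label, gave 43 genes higher and 127 lower between sets, 46 ribosomal protein genes, 7 other immediate-early genes, 3 unfolded protein response genes and 2 host and nuclear RNA genes, and 278, 346, 150 and 146 genes against uninjured in the order above. Deviations from the group mean correlated at 0.24 for 1 with 1_2 and at 0.24 for 5 with 5_2, each library best with its own number. Only 2 such pairs exist, so whether they share an animal cannot be decided from them. Numbers shared with uninjured libraries gave -0.12 to 0.00, but these come from other mice and cannot decide it either. The main fit did not use the numbers as pairing.

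Over 102 combinations of a named gene and a comparison, 1760 values were recomputed under an alternative. Of these 1436 kept direction and call, 310 lost the call, 11 gained it and 3 turned. Those that turned were Cd44 between sets, never called, without library 1 (-0.15) and without library 1_2 (-0.02), with up to 0.15 when another library was left out, and Fkbp5 in the single-number set against uninjured without library 5 (-0.10), with up to 0.19 when another was left out. Spearman's correlation of the set difference with transcript length was -0.02 and with GC content -0.17 over genes with a length (99.0%), a description over genes of the same libraries. Medians were -0.19 in the shortest and -0.22 in the longest of 10 length classes. Precision is set by 3 libraries a set and by counting at low levels, as for Mir17hg.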
